A study of Mus musculus with 2 samples.

Results

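Genes of the myosin-binding proteins and the myomesins were examined in gastrocnemius, the large mixed calf muscle of the mouse. The 7 genes were chosen by symbol, as accessory proteins of the thick filament (Mybpc1, Mybpc2, Mybpc3 and Mybph) and of the M-band (Myom1, Myom2 and Myom3), out of 55536 genes listed. All 7 symbols were found, each with 1 gene identifier. The series holds 1 group of 2 total RNA libraries, called replicate 1 and replicate 2 after the biological replicate numbers in the labels. Both came from gastrocnemius of male B6CASTF1/J mice aged 2 months, first-generation hybrids of the B6 and CAST strains, with 300 ng of RNA and ERCC spike-in RNA in each. There is no treated or control group. The labels name a tissue sample of its own for each library but give both the same donor entry, and nothing in them states that the samples came from separate animals, so the spread between the libraries may be partly technical. The libraries held 42925570 (replicate 1) and 42467674 (replicate 2) expected counts.

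Myosin-binding protein C lies in regular stripes along the thick filament, where its one end anchors to myosin and titin and its other end can reach the myosin heads and actin. It restrains and tunes cross-bridge cycling, and its slow skeletal, fast skeletal and cardiac forms come from Mybpc1, Mybpc2 and Mybpc3. Mybph encodes myosin-binding protein H, a shorter relative. The M-band crosslinks thick filaments at the centre of the sarcomere, and myomesin (Myom1), M-protein (Myom2) and myomesin 3 (Myom3) are its structural bridges. Myomesin is known in all striated fibres, M-protein is best known from fast fibres and heart, and myomesin 3 from slower fibres.

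Alternative coding exons distinguished the main transcripts of Mybpc1 and Myom1, and their sequences are shown because the shares given further on rest on them. Each is printed 5′ to 3′ as it stands in the mRNA (GENCODE M21 transcripts, mm10 assembly), with the exon in capitals and adjoining bases of the neighbouring exons in lower case. The Myom1 exon of 294 bases (chr17:71082203-71082496, plus strand) is exon 18 of 38 in the transcript Myom1-202, and it is skipped in Myom1-201 and Myom1-203. It adds 98 codons in the middle of the molecule. Myomesin with an extensible segment inserted at its centre is known as EH-myomesin, a form best known from the embryonic heart and also described in slow fibres.
Myom1 exon of 294 bases: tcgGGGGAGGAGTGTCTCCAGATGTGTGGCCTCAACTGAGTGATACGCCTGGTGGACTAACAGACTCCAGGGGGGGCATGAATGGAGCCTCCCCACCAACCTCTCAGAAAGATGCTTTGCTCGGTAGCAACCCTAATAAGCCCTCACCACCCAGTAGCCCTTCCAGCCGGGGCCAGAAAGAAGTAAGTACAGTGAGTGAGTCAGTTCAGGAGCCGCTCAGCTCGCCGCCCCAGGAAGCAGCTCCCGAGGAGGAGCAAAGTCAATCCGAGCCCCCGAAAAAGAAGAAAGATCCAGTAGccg

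Near the other end of Myom1, exons of 23 bases replace each other. One (chr17:71120794-71120816) is in Myom1-201, and the other (chr17:71121126-71121148) is in Myom1-202 and Myom1-203. The pair match at 6 of 23 positions. Apart from the first and last exons, whose outer bounds differ, this pair is the only difference between Myom1-201 and Myom1-203. Telling them apart thus rests on reads over the pair or at those outer ends.
Myom1 exon of 23 bases in Myom1-201: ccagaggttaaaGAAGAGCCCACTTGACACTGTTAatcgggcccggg
Myom1 exon of 23 bases in Myom1-202 and Myom1-203: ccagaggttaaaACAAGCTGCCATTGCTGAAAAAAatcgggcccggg

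The main coding transcripts of Mybpc1, Mybpc1-202 and Mybpc1-201, differ at both ends. Mybpc1-202 holds a coding exon of 42 bases (chr10:88582007-88582048, minus strand), exon 3 of 29, which adds 14 codons near the start of the protein. Mybpc1-201 holds a coding exon of 59 bases (chr10:88521277-88521335, minus strand), exon 27 of 29. Its length is not a multiple of 3, so the coding sequence runs on for 3 bases into the next exon in Mybpc1-201 and for 11 bases in Mybpc1-202.
Mybpc1 exon of 42 bases in Mybpc1-202: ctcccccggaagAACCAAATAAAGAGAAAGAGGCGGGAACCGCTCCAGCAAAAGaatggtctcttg
Mybpc1 exon of 59 bases in Mybpc1-201: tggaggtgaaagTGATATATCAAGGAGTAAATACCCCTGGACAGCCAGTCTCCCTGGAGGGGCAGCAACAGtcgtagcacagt

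Levels are given as TPM (transcript levels corrected for length and scaled to a fixed total), which allow genes to be compared. The first tables, with expected counts, give the main values. The second tables are another estimate of the same libraries. The muscle genes Acta1, Ckm, Tnnt3 and Myh4 had a summed level of 63373 TPM in replicate 1, against 51825 TPM in the other library. Markers of heart muscle were near 0, with 10 of 11 under 1 TPM in both libraries of the first tables and a summed level of 2.19 and 2.46 TPM. Nppa, Nppb, Myl7 and Nkx2-5 had 0 reads in both kinds of table, and Tbx20 and Gata4 had 0 reads in the first but up to 0.317 TPM in the second. Myl4 was the highest, at 1.15 and 1.53 TPM, and Hcn4 had 124 and 110 reads. Fibroblast, endothelial, mural, macrophage, satellite, Schwann, adipocyte and red cell markers ranged in summed level from 1.51 to 180 TPM, and the part of such cells in the results was not tested. The adipocyte markers summed to 5.66 TPM in replicate 1 against 3.14 TPM in the other library, mostly from Cfd with 142 and 77 reads, while Adipoq and Plin1 had at most 19 reads. The fibroblast markers did not go one way. The collagen gene Col1a1 was higher in replicate 2, with 12071 and 17608 reads. Dcn (6087 and 4964 reads) and Pdgfra (1069 and 697 reads) were lower there. In a bulk sample, fewer fibres of a type and less RNA per fibre cannot be told apart.

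Fast myosin-binding protein C led the myosin-binding protein genes. Mybpc2 (chr7:44501699-44524656) had 1949 TPM in replicate 1 against 1316 TPM in replicate 2, with a mean of 1633 ± 448 TPM (SD, n = 2), and ranked 43 and 50 among all genes. Its counts were 235170 and 158867 reads. After the scaling between libraries explained further on, replicate 1 was the higher by 1.43-fold. Essentially one transcript carried the gene, with Mybpc2-201 at 100% and 99.97% of its TPM.

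Slow myosin-binding protein C was higher in the other library. Mybpc1 (chr10:88518279-88605152) had 294 TPM in replicate 1 against 480 TPM in replicate 2, with a mean of 387 ± 132 TPM. The TPM ratio of Mybpc2 to Mybpc1 was 6.64 in replicate 1 and 2.74 in replicate 2. The fast form thus exceeded the slow form in both libraries, and the margin was narrower in replicate 2. In the second tables that ratio was 6.68 and 2.75.

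Mybph (chr1:134193448-134201232) had 125 TPM in replicate 1 against 64.8 TPM in replicate 2, with a mean of 94.7 ± 42.3 TPM. It was the lowest of the 3 myosin-binding protein genes with reads, and Mybpc2 exceeded it 15.6-fold and 20.3-fold. The Mybph gene overlaps Adora1 on the opposite strand. With both strands counted, 43.9% of the 50-base stretches of Mybph are also found in Adora1 transcripts. Adora1 itself was given 14 and 8 reads.

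Cardiac myosin-binding protein C was not detected. Mybpc3 (chr2:91118144-91136516) had 0 reads in both libraries and in both kinds of table, across all 3 of its transcripts. With no read seen, a true level of up to 3 reads remains possible, worth 0.0216 TPM in replicate 1 and 0.0215 in replicate 2. Against that limit Mybpc1 was at least 13622-fold higher in replicate 1 and at least 22301-fold higher in replicate 2, for counting error only. No 50-base stretch of Mybpc3 occurs in a transcript of another gene. Mybphl, the relative of Mybph known from heart atria, also had 0 reads in both libraries.

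The myomesin genes were led by Myom1. It (chr17:71002633-71126856) had 541 TPM in replicate 1 against 496 TPM in replicate 2, with a mean of 518 ± 31.3 TPM, with 76830 and 68699 reads. Myom2 (chr8:15057653-15133541) was at 404 and 323 TPM, a mean of 363 ± 57.3 TPM. Myom1 exceeded Myom2 by 1.34-fold and 1.54-fold in TPM in the first tables, and by 1.16-fold and 1.29-fold in the second. Both genes were somewhat lower in replicate 2. The first-table level of Myom1 includes 131 and 135 TPM of Myom1-208, a noncoding transcript described further on. In the second tables that transcript had 0 and 2.91 TPM. Myom2-201, the coding transcript of Myom2, had 384 and 309 TPM in the first tables. The lead of Myom1 there thus rests partly on Myom1-208.

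Myom3 (chr4:135759715-135815564) was far lower and was the myomesin gene higher in replicate 2. Its level was 12.2 TPM in replicate 1 against 29.2 TPM in replicate 2, with a mean of 20.7 ± 12.1 TPM, from 2047 and 4775 reads. Myom1 exceeded it 44.4-fold in replicate 1 and 17.0-fold in replicate 2. No 50-base stretch of Myom3 occurs in a transcript of another gene.

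By mean TPM the order was Mybpc2, Myom1, Mybpc1, Myom2, Mybph, Myom3 and Mybpc3. Among neighbours, Mybpc1 and Myom2 changed places between the libraries, since Mybpc1 was below Myom2 in replicate 1 and above it in replicate 2. Myom1 exceeded Mybpc1 in both libraries, but in the second tables Mybpc1 was the higher of the pair in replicate 2 (604 against 547 TPM). The other steps kept their order in both libraries and both kinds of table. TPM in the second tables was 1.10 to 1.40 times that in the first for the 6 genes with reads.

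**Figure D1:**
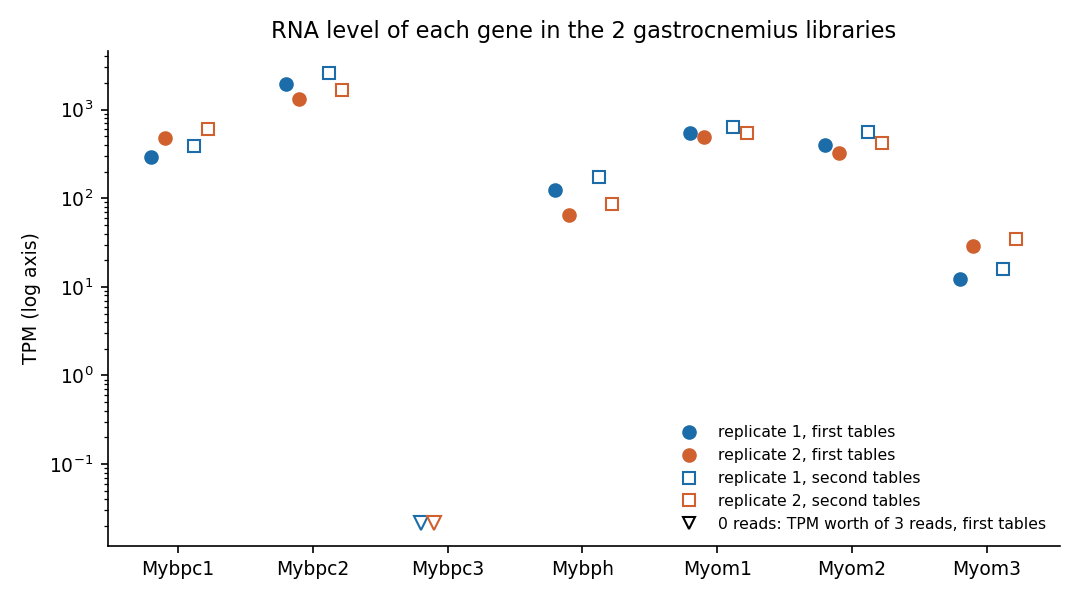
Level of each gene in TPM on a log axis, with 1 point for each library and kind of table. Circles are the first tables, squares the second, and triangles mark the TPM worth of 3 reads for Mybpc3, which had 0 reads. Mybpc2 is highest in all 4 estimates, and Mybpc1 and Myom3 are the genes that are higher in replicate 2.

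The libraries were then set against each other. Each ratio divides replicate 2 by replicate 1 after TMM scaling, which aligns the bulk of genes, and each interval is an exact 95% interval that covers counting error only. With 1 library on each side there is no replicate check, so no p-value is given, and a gene is called apart at 1.5-fold. Of the 6 genes with reads, 3 were called apart, 2 higher in replicate 2 and 1 higher in replicate 1. Over all 14817 genes with at least 20 reads in sum, 12.5% were called apart, 6.51% higher in replicate 2 and 6.04% higher in replicate 1. Among the 5610 genes with at least 1000 reads in sum, as all 6 have, the share was 4.49%, with 3.48% higher in replicate 2 and 1.02% higher in replicate 1. The median size of the log2 ratio was 0.64 over the 6 genes, against 0.17 over all genes tested and 0.12 over those with at least 1000 reads.

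Myom3 differed most, with a log2 ratio of 1.27 (1.19 to 1.34), or 2.41-fold. It was the only one past 2-fold, as were 4.21% of all genes tested. Mybpc1 followed at 0.75 (0.73 to 0.77), or 1.68-fold. Mybpc1 encodes the form named slow skeletal, and a part of fibre type in either ratio was not tested. Mybph was the gene called apart in the other direction, at -0.90 (-0.96 to -0.85), or 1.87-fold higher in replicate 1.

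Mybpc2 stayed short of the 1.5-fold line at -0.52 (-0.53 to -0.51). Myom2 was at -0.27 (-0.29 to -0.25). Myom1 was closest to equal, at -0.12 (-0.13 to -0.10), or 1.08-fold higher in replicate 1. The second tables gave 1.26 for Myom3, 0.76 for Mybpc1, -0.92 for Mybph, -0.51 for Mybpc2, -0.26 for Myom2 and -0.11 for Myom1.

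Genes of slow fibres differed between the libraries as well. All 9 slow-fibre genes were past 1.5-fold higher in replicate 2, against 6.51% of all genes tested. The log2 ratios of the slow-fibre genes ran from 1.26 to 2.36 with a median of 1.36, while the median over all genes tested was near 0. Their summed level was 1257 TPM in replicate 1 and 3216 TPM in replicate 2. The 4 most abundant were Myl2 at 1.45, Myl3 at 1.44, Myh7 at 1.34 and Tnnt1 at 1.35. Myom3 lay at the lower edge of that range, and Mybpc1 lay below it. None of 9 fast-fibre genes was past 1.5-fold, against 12.5% of all genes tested, so that count shows nothing particular to them. Their log2 ratios ran from -0.45 to -0.19 with a median of -0.28. The most abundant of them had -0.28 (Tnnt3), -0.34 (Mylpf), -0.19 (Atp2a1) and -0.40 (Myl1). Myom2 lay inside that range, and Mybpc2 and Mybph lay below its lowest member, Actn3, named after its value was seen. The part of fibre makeup in the ratios of the myosin-binding protein and myomesin genes was not tested.

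Partners at the M-band and along the thick filament were mostly within 1.5-fold, as were most genes tested. Of 18 listed genes 17 had at least 20 reads. Among these 1 was past 1.5-fold, against 12.5% of all genes tested, so the count shows nothing particular to them. It was the adaptor gene Fhl2, at 0.86 from 59 and 104 reads, named after its value was seen. The median log2 ratio of the list was -0.06. Ckm, the muscle creatine kinase that binds to the M-band, was at 18707 and 14858 TPM with a log2 ratio of -0.29. Eno3, muscle enolase, was at 2936 and 2491 TPM with -0.20. Titin (Ttn), which spans from Z-disc to M-band, was at 2818 and 2510 TPM with -0.17.

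Kinases reported to act on myosin-binding protein C had 0 of 8 members past 1.5-fold, against 12.5% of all genes tested, so the count shows nothing particular to them. All 8 had at least 20 reads, with a median log2 ratio of -0.16. Camk2a led them at 177 and 126 TPM with -0.42, followed by Camk2g at 63.8 and 53.8 TPM with -0.23. Prkaca, a catalytic subunit of protein kinase A, was at 53.7 and 56.7 TPM with 0.12, and Camk2b at 42.4 and 42.5 TPM with 0.05.

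**Figure D2:**
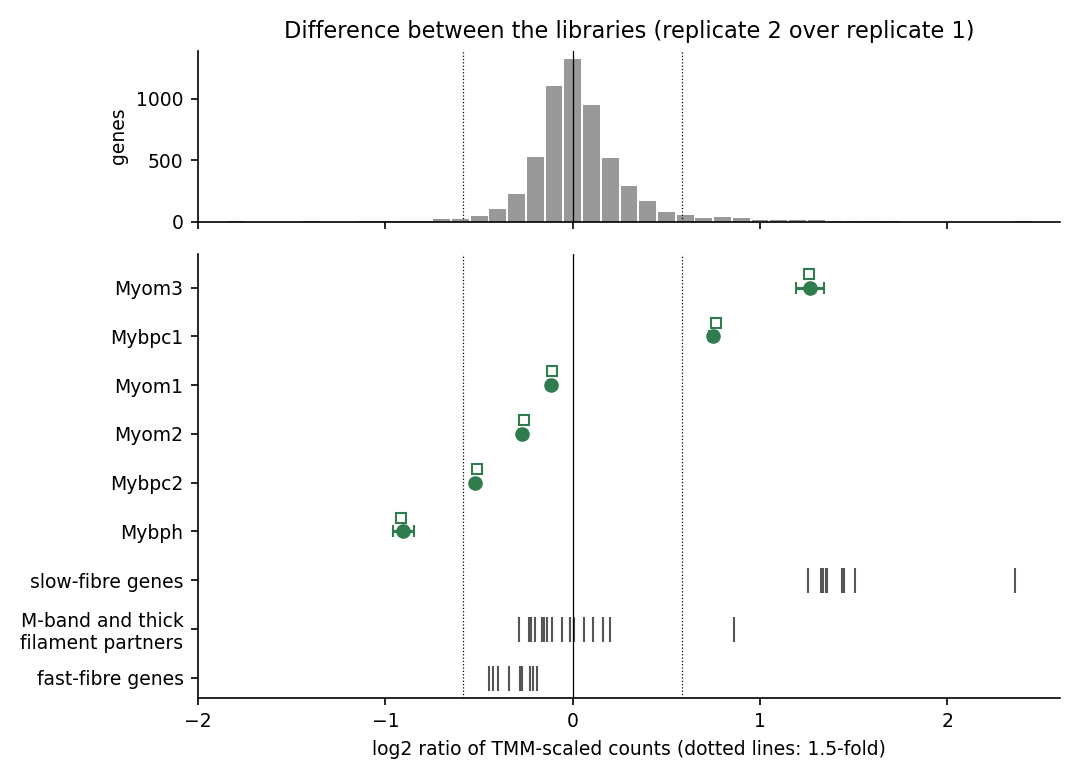
Log2 ratio of replicate 2 over replicate 1, with dotted lines at 1.5-fold. The top panel counts genes with at least 1000 reads in sum, and the lower panel shows the 6 genes with reads (circles with counting intervals, squares for the second tables) above ticks for each gene of the slow-fibre, partner and fast-fibre lists. Myom3 at 1.27 and Mybpc1 at 0.75 lie on the replicate 2 side, Mybph at -0.90 on the replicate 1 side.

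Within the myosin-binding protein genes, the shares of the slow and fast forms differed between the libraries. Mybpc1 held 12.4% of the TPM of the myosin-binding protein genes in replicate 1 and 25.8% in replicate 2, on average 19.1 ± 9.48%. Mybpc2 held 82.3% and 70.7%, a mean of 76.5 ± 8.22%. Mybph held 5.26% and 3.48%, a mean of 4.37 ± 1.26%. The higher share of Mybpc1 in replicate 2 thus stood mostly against a lower share of Mybpc2.

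Among the myomesins the main share was nearly level. Myom1 held 56.5% in replicate 1 and 58.5% in replicate 2, on average 57.5 ± 1.41%. Myom2 held 42.2% and 38.0%, a mean of 40.1 ± 2.95%. Myom3 held 1.27% and 3.45%, a mean of 2.36 ± 1.54%. In the second tables Myom1 held 53.0% and 54.3%. The first-table share of Myom1 includes the TPM of the noncoding Myom1-208, which was at or near 0 in the second tables.

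Set against myosin itself, the total of the myomesin genes was nearly level between the libraries. That of the myosin-binding protein C genes was somewhat lower in replicate 2. The summed TPM of Mybpc1 to Mybpc3 came to 17.9 per 100 TPM of the adult myosin heavy chains (Myh4, Myh1, Myh2 and Myh7) in replicate 1 and 16.4 in replicate 2, on average 17.1 ± 1.09. For the 3 myomesin genes these values were 7.63 and 7.72, a mean of 7.68 ± 0.0634. Per 100 TPM of Ttn the myomesins came to 33.9 and 33.8 (36.7 and 34.7 in the second tables). The myosin-binding protein C genes came to 79.6 and 71.6 per 100 TPM of Ttn (89.5 and 78.1 in the second tables), lower in replicate 2. The second tables gave 17.3 and 15.5 for the myosin-binding protein C genes and 7.10 and 6.88 for the myomesins per 100 TPM of myosin heavy chains. Mybph differed more, with 0.994 per 100 TPM of myosin heavy chains in replicate 1 and 0.590 in replicate 2. The heavy chains themselves differed in makeup, with Myh4, the fastest of them, at 89.9% of their TPM in replicate 1 and 76.8% in replicate 2. Myh4 itself was at 11267 and 8431 TPM, with a log2 ratio of -0.37. Myh1, Myh2 and Myh7 were past 1.5-fold higher in replicate 2, at 0.94, 1.02 and 1.34.

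**Figure D3:**
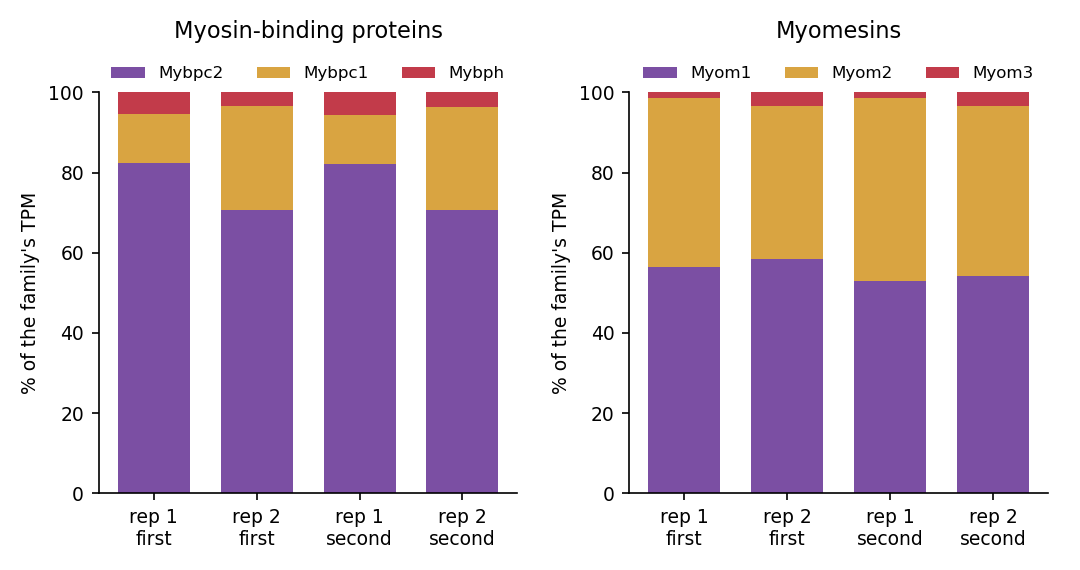
Share of each gene in the summed TPM of its family, in percent, for each library and kind of table (first, second). Mybpc1 takes 12.4% in replicate 1 and 25.8% in replicate 2 of the first tables, while Myom1 stays between 53.0% and 58.5% in all 4 bars.

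Transcripts of the same gene were compared next, as shares of its TPM. Estimates of single transcripts depend on how a program divides shared reads, so the posterior SD of the count in the first tables is given beside them and both kinds of table are used. For whole genes the posterior SD of the count was at most 0.03 reads for all 7 genes. It does not cover the difference between the kinds of table. For Myom1 in replicate 1 the count was 76830 in the first tables and 85698 in the second.

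The central exon of Myom1 was the clearest difference. Myom1-202, the coding transcript that holds the central exon printed earlier, made 3.04% of Myom1 TPM in replicate 1 and 8.97% in replicate 2, on average 6.00 ± 4.19%. It had 3130 reads (posterior SD 264) in replicate 1 and 8493 reads (posterior SD 367) in replicate 2. On the scaled counts this was a log2 ratio of 1.49, while the gene as a whole was at -0.12. In the second tables the share was 5.34% and 13.8%, and the log2 ratio of the transcript was 1.25. The noncoding Myom1-204 and Myom1-205 hold these bases within longer exons and are not counted in these shares. In the first tables Myom1-205 made 1.16% and 1.20% of Myom1 TPM, and Myom1-204 made 0.00% in both libraries. Over the coding transcripts that span the exon, the share of Myom1-202 was 4.10% and 12.6% in the first tables and 5.95% and 15.3% in the second. The higher share in replicate 2 was thus found in both kinds of table, and its size differed between them.

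Myom1-203, without that exon, carried most of the gene. It made 65.4% of Myom1 TPM in replicate 1 and 61.9% in replicate 2, with 63317 and 55133 reads, and 64.1% and 64.0% in the second tables. Myom1-201, which differs by the 23-base exon, was poorly determined. It made 5.64% and 0.14% in the first tables, from 5500 reads (posterior SD 452) and 124 reads (posterior SD 430), but 20.3% and 12.05% in the second tables. Its count in replicate 2 of the first tables was thus below its posterior SD, and the second tables give no such SD.

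Myom1-208, a noncoding transcript of 941 bases at the 3′ end of the gene, also depended on the kind of table. It made 24.2% and 27.1% of Myom1 TPM in the first tables, but 0.00% and 0.53% in the second. Myom1-209, a coding transcript, made 0.08% and 0.04% in the first tables but 8.20% and 7.48% in the second. Of the bases of Myom1-208, 91.4% lie in exons of the coding transcripts. The exon of 23 bases in Myom1-203 is also in Myom1-208, so transcripts with that exon summed to 92.6% and 98.0% in the first tables and to 69.5% and 78.3% in the second.

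**Figure D4:**
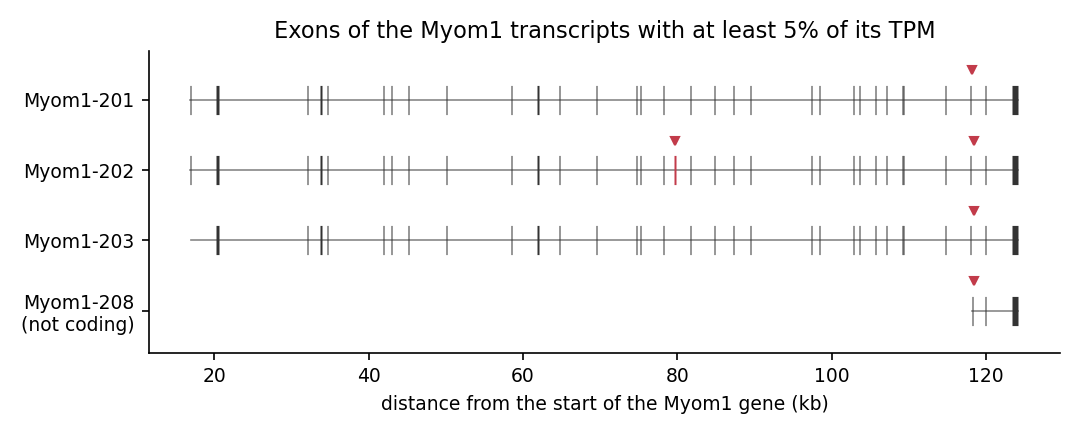
Exons of the Myom1 transcripts that made at least 5% of its TPM in a library, drawn to scale against distance from the start of the gene in kb. Bars are exons, lines are introns, and red marks with triangles show the alternative coding exons of 294 and 23 bases. Of the transcripts drawn, Myom1-202 alone holds the central exon, and the exons of 23 bases lie close together near the 3′ end.

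The main coding transcripts of Mybpc1 had nearly level shares while the gene's level differed. Mybpc1-202, with the 42-base exon, made 51.2% of Mybpc1 TPM in replicate 1 and 52.0% in replicate 2, on average 51.6 ± 0.569%. Mybpc1-201, with the 59-base exon, made 30.3% and 29.0%. Their log2 ratios between the libraries were 0.78 and 0.69. In the second tables Mybpc1-202 made 59.0% and 59.5%, and Mybpc1-201 made 29.3% and 28.4%. Both transcripts thus differed along with the gene. The transcripts Mybpc1-203 and Mybpc1-204, annotated as retained introns, made 9.20% and 8.22% in replicate 1 and 10.4% and 7.51% in replicate 2. In the second tables Mybpc1-203 made 2.43% in replicate 1 and 3.99% in replicate 2, and Mybpc1-204 made 7.36% and 6.52%.

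**Figure D5:**
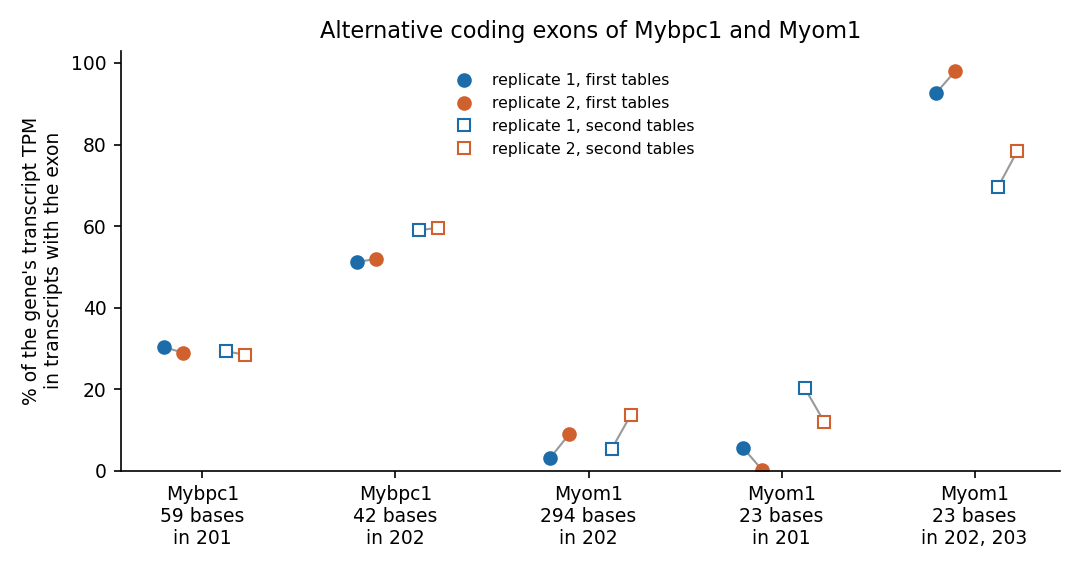
Share of the gene's transcript TPM in transcripts with each alternative coding exon, in percent, for each library and kind of table. Lines join the libraries within a kind of table. The 42-base and 59-base exons of Mybpc1 are level between the libraries, and the 294-base exon of Myom1 goes from 3.04% to 8.97% in the first tables and from 5.34% to 13.8% in the second.

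The other genes had one main coding transcript each. Mybph-201 made 93.8% of Mybph TPM in replicate 1 and 96.0% in replicate 2. Mybph-202 has the same coding length of 1449 bases and differs at the 3′ end, and it made the rest. Myom2-201 made 95.2% and 95.7% of Myom2 TPM, and none of the other 4 Myom2 transcripts reached 5% in the first tables. In the second tables Myom2-201 made 93.1% and 93.2%, and Myom2-202, annotated as a retained intron, made 6.90% and 6.77%. Myom3-201 made 81.3% and 76.3% of Myom3 TPM. Myom3-203, annotated as a retained intron, made 17.5% and 23.2% in the first tables but 4.54% and 7.54% in the second.

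Genes whose ratio was nearest to each gene were sought among 578 genes with a mean of at least 100 TPM. Likeness here means the smallest gap in log2 ratio over 2 libraries, a single number per gene, so many genes lie close. For Myom3 they were Atp2a2, the slow calcium pump, at 1.26 and Myoz2, a Z-disc protein of slow fibres, at 1.21. For Mybpc1 they were Pdk4 at 0.74 and Myl12a at 0.76. Myl12a overlaps the start of Myom1 on the opposite strand by 246 bases, and had 3454 and 5677 reads. With both strands counted, 1.51% of the 50-base stretches of Myom1 are also found in Myl12a transcripts. The share found in transcripts of other genes was 4.36% for Mybpc1, 2.69% for Mybpc2 and 0.42% for Myom2. For Mybpc2 they were Gm22513 at -0.52 and Smtnl2 at -0.51, and for Mybph Gsn at -0.91 and Gm27505 at -0.88. For Myom2 they were Klhl31 and Casq1, both at -0.27, and for Myom1 Psap and Mbnl1, both at -0.11.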

How the data were processed

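The authors deposited, for each library, a gene table and a transcript table with expected counts, TPM, posterior standard deviations (read here as scores) and, for transcripts, the percent of the gene's TPM. They also deposited a second transcript table with estimated counts and TPM, which was summed to genes. Per the deposited notes, all use mm10 and GENCODE M21, the first derive from reads aligned to the transcriptome and the second from 1 file of reads. The sources used here name neither the programs nor the use of strand.

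Gene and transcript models came from GENCODE M21, and all 55536 gene identifiers matched it. The 26248 entries with numeric identifiers, which name no gene and held 1 read in replicate 1 and 0 in replicate 2, were left out of gene totals, as were 96 ERCC RNAs. TMM sizes were computed with edgeR 4.0.16 and the alternative size factors with DESeq2 1.42.0 in R 4.3.3, on rounded expected counts, with 0.5 added to each count in ratios. No test between libraries was made. The ratio code was tested on simulated data. Transcripts with at least 5% of a gene's TPM in either library of the first tables and the exons that differ between the coding ones are named, as are the 4 most abundant genes of each list (for fast, slow, partner and kinase genes) and the 2 nearest genes by ratio. For the partner list, 1 result is not reported here. Genes and lists were chosen with earlier results of these data known. Intervals are exact Clopper-Pearson intervals at 95%, and reads are not independent molecules. Alternatives covered the kind of table, scaling, prior count, filter, fold and each library left out.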

Additional observations from a re-analysis of the deposited data

How the results depend on the processing

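All 6 log2 ratios kept their sign and their side of the 1.5-fold line under the 6 alternatives tried (DESeq2 size factors, total count, ERCC counts, the second tables, a prior count of 2, TMM over all genes), with ranges of 1.24 to 1.32 for Myom3, 0.72 to 0.80 for Mybpc1, -0.94 to -0.85 for Mybph, -0.55 to -0.47 for Mybpc2, -0.30 to -0.22 for Myom2 and -0.15 to -0.06 for Myom1. At 2-fold, 1 gene (Myom3) was apart in place of 3. The mean share of Mybph in its family was 2.28% by expected counts, which are not per length. That of Myom1 was 53.7% in the second tables and 53.3% by expected counts, and that of Myom2 43.9% and 44.1%, beyond the spread between libraries. TPM rescaled over nuclear protein-coding genes was higher for all 6 genes with reads, from 52.7 for Myom3 to 4082 for Mybpc2, since fewer RNAs share the fixed total. Leaving out a library leaves 1 value, so it gives no check. The alternative over coding transcripts that span an exon, and the background at 1000 reads, were chosen after seeing the data. No paired analysis was possible because there is 1 group.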
